A study of Mus musculus with 2 samples.

Results

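The 10 glycolytic enzyme genes described here are the isoforms Hk1 and Hk2 of hexokinase, Pfkl, Pfkm and Pfkp of phosphofructokinase, Aldoa of aldolase, Eno1 and Eno3 of enolase, and Ldha and Ldhb of lactate dehydrogenase. They were found by symbol, and all 10 are among the 24062 genes of the count tables. They were chosen by the counts and ratios of these same 2 libraries, so their levels and ratios are a description. The RNA came from the aorta of C57BL6 mouse embryos at embryonic day 11, from CD31+ KITint cells that the labels call haematopoietic progenitor cells. Both groups carried Gata2Venus, a fluorescent reporter for the blood transcription factor Gata2, and differed in the sort on it. The labels give the sign both as the sort and as a genotype. Gata2Venus-negative cells gave 1 library, of 10135400 counts over genes, and Gata2Venus-positive cells 1 library, of 9715131. The number of embryos and cells behind each library is not given in the sources used here. There are no replicates, hence no p-values, and each comparison is one of these libraries and not of the conditions. All intervals are 95% intervals and cover counting error only. They are exact except for those of differences between shares, which are approximate. Reads amplified by PCR without molecular identifiers can repeat a molecule, which makes such intervals too narrow.

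Glycolysis splits glucose into pyruvate, and lactate dehydrogenase can then turn pyruvate into lactate. Hexokinase traps glucose in the cell as glucose 6-phosphate, phosphofructokinase makes the committed step, aldolase cleaves the sugar, and enolase forms phosphoenolpyruvate. Each of these enzymes is encoded by several genes with preferred tissues and different kinetic or regulatory properties, and cells often express more than one of them. Adult blood stem cells are known for relying on glycolysis to a large extent, whereas the cells here came from embryos.

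The labelled cell type was checked against marker genes. Pecam1, which encodes CD31, was at 537 CPM in the Gata2Venus-negative library and 489 CPM in the Gata2Venus-positive library (CPM is the count scaled to a common library total with TMM factors), and Kit was at 199 and 60.7 CPM. Ptprc, the pan-leukocyte gene, was at 18.6 CPM in Gata2Venus-negative and 52.7 CPM in Gata2Venus-positive cells, and Myb, a transcription factor of blood progenitors, had 0 and 58 counts. Gata2 itself had 141 counts in Gata2Venus-negative and 664 in Gata2Venus-positive cells, and Runx1, a transcription factor needed for blood cells to form from endothelium, had 21 and 303. Of the 8 genes at the level minimum in this list of 9 progenitor and endothelium markers, 1 (Kit) was past the rule of size defined below and higher in Gata2Venus-negative cells. Another 5 were past it and lower (Runx1, Gata2, Cdh5, Spi1 and Ptprc), and Itga2b, at 45.9 against 90.6 CPM, and Pecam1 were not past it. Over all genes at the level minimum, 15.2% were past it and higher and 14.9% past it and lower. Other cell types' markers also differed. The 8 smooth muscle and mesenchyme markers summed to 6235 CPM in Gata2Venus-negative cells, with all 8 detected, and to 3137 CPM in Gata2Venus-positive cells, with 7 detected and Myh11 at 0. The 5 macrophage markers in the tables were all detected in both libraries, and summed to 130 CPM in Gata2Venus-negative and 578 CPM in Gata2Venus-positive cells. Of 7 erythroid markers 4 were detected in Gata2Venus-negative cells, where Gata1 and Klf1 were among those at 0, and 6 in Gata2Venus-positive cells. They summed to 325 CPM in Gata2Venus-negative and 222 CPM in Gata2Venus-positive cells. The 4 epithelial markers summed to 383 and 266 CPM, and the 6 neural markers to 6.15 and 50.2 CPM. What part such cells had in any difference below was not tested. In sorted bulk samples, fewer cells of a type and less RNA per cell cannot be told apart.

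In the Gata2Venus-negative library Hk1, Hk2, Eno3 and Ldhb had higher values than in the Gata2Venus-positive library, and Pfkm, Pfkp and Ldha had lower ones. Pfkl and Aldoa were at close to equal levels. A gene was past the rule of size used here when its higher library held 10 CPM and 50 counts or more and its whole ratio interval was beyond 2-fold. This level minimum was met by 9 members and not by Eno1. Of the members, 3 were past the rule and higher in Gata2Venus-negative cells (Hk2, Eno3 and Ldhb), where 15.2% of the 10381 genes at the level minimum were. A further 2 were past it and lower (Pfkm and Pfkp), where 14.9% of those genes were, or 30.1% in either direction. Hk1, with a log2 ratio of 0.95, had the value nearest below the 2-fold line, and Ldhb, with 1.43, the nearest above it. The 10 log2 ratios had a median of 0.19 and ran from −2.04 to 2.002, beside a median of −0.002 over all genes at the level minimum. Together the 10 genes took 0.266% of the gene counts in Gata2Venus-negative and 0.309% in Gata2Venus-positive cells.

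**Figure D1:**
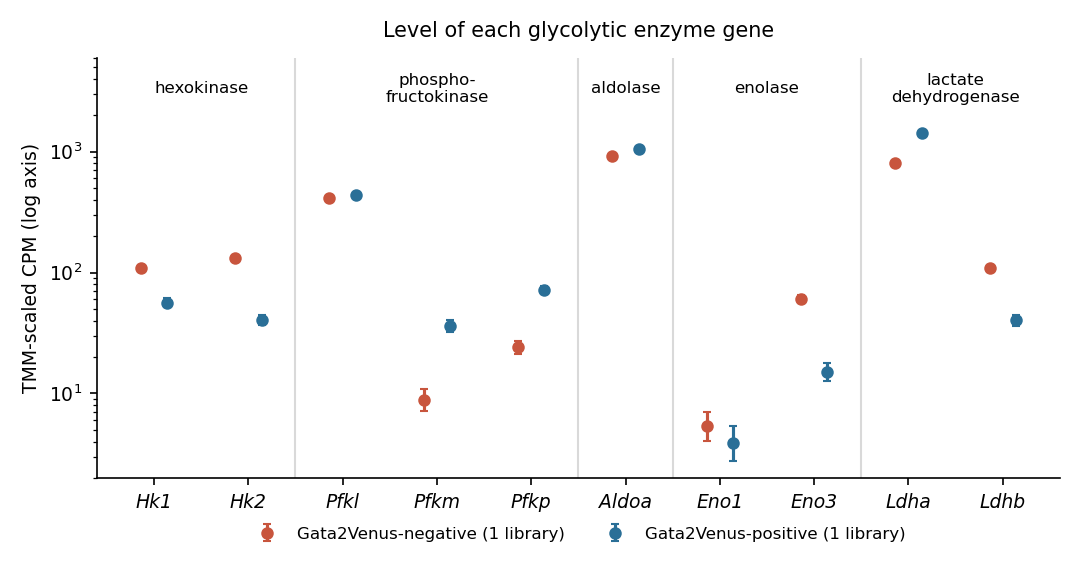
TMM-scaled CPM on a log axis of the 10 genes in the Gata2Venus-negative library (red) and the Gata2Venus-positive library (blue). Points are the 2 libraries and bars are exact 95% Poisson intervals. Hk1, Hk2, Eno3 and Ldhb lie higher in Gata2Venus-negative cells, Pfkm, Pfkp and Ldha lie lower, and Pfkl and Aldoa are nearly level.

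**Figure D2:**
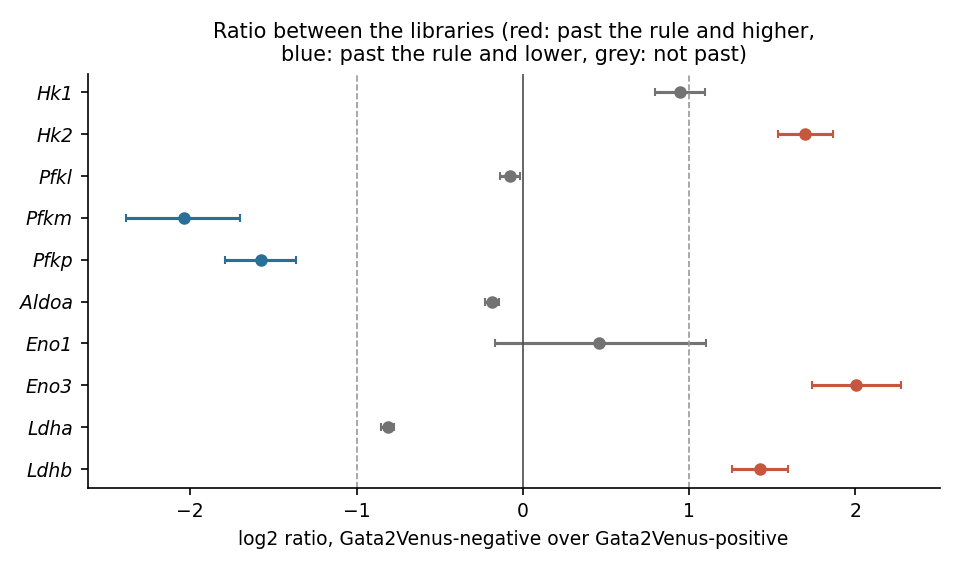
Log2 ratio of Gata2Venus-negative over Gata2Venus-positive for each gene, with its exact 95% interval and dashed lines at 2-fold. The intervals of Hk2, Eno3 and Ldhb lie wholly beyond the right line, those of Pfkm and Pfkp wholly beyond the left one.

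The spread of ratios among genes of like level sets the scale for these values. Among genes with a mean of 10 to 50 CPM, the class of Pfkm, Pfkp and Eno3, the SD of the log2 ratio estimated from the quartiles was 1.23. It was 0.84 at 50 to 100 CPM, the class of Hk1, Hk2 and Ldhb, 0.61 at 100 to 500 CPM, the class of Pfkl, and 0.46 above 500 CPM, the class of Aldoa and Ldha. These SDs leave out genes with 3 or fewer counts in one library. At 10 to 50 CPM, 4450 of 4743 genes had more than 3 counts in both libraries. In the first of these classes 35.7% of genes were past the rule of size in either direction, against 18.8%, 10.5% and 6.08% in the others. With a coefficient of variation of 0.4 assumed between libraries beside counting error, 0 members were past the rule in either direction.

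Of the hexokinase genes, Hk2 was past the rule and higher in the Gata2Venus-negative library, Hk1 was not past it, and Hk3, which is no member, was past it and lower. Hk2 (chromosome 6, 82725025 to 82774454, mm10), the inducible hexokinase of muscle, embryonic and tumour cells, had 1367 counts in Gata2Venus-negative and 383 in Gata2Venus-positive cells. That is 131 CPM (interval 124 to 138) and 40.5 CPM (interval 36.5 to 44.8), a 3.24-fold higher level in Gata2Venus-negative cells (log2 ratio 1.70, interval 1.53 to 1.86). Hk1 (chromosome 10, 62268855 to 62379908), the hexokinase found in most tissues, had 1128 and 532 counts. Its levels were 108 CPM (interval 102 to 115) in Gata2Venus-negative and 56.3 CPM (interval 51.6 to 61.2) in Gata2Venus-positive cells. The log2 ratio of 0.95 (interval 0.80 to 1.10) has a lower bound under 2-fold, so Hk1 was not past the rule.

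Levels of different genes were compared per kb of annotated exon. In the Gata2Venus-negative library Hk2 stood at 22.0 and Hk1 at 12.7 CPM per kb, and in Gata2Venus-positive cells at 6.78 and 6.59. Hk2 thus made up 63.4% of the counts per kb of the pair in Gata2Venus-negative cells (interval 61.5 to 65.2) and 50.7% in Gata2Venus-positive cells (interval 47.4 to 54.0), a difference of 12.7 percentage points (interval 8.87 to 16.5). The ratio of Hk2 to Hk1, which depends on neither gene length nor scaling when compared between libraries, was 1.68-fold higher in Gata2Venus-negative cells (interval 1.44 to 1.97). Which gene of the pair leads within a library depended on the length used. Per kb of the longest coding transcript, Hk2 had 48.5% in Gata2Venus-negative and 35.8% in Gata2Venus-positive cells.

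Another hexokinase, Hk3, is known from myeloid cells. It had 1 count in Gata2Venus-negative and 262 counts in Gata2Venus-positive cells, or 0.096 and 27.7 CPM (log2 ratio −8.17, interval −13.48 to −5.68). With Hk3 added to the family, it took 0.0751% of the counts per kb in Gata2Venus-negative and 36.0% in Gata2Venus-positive cells. Hk1 then took 36.6% in Gata2Venus-negative and 31.5% in Gata2Venus-positive cells, so the direction of its share difference turned, and Hk2 took 63.4% and 32.5%. That turn rests on the 1 and 262 counts of Hk3 in 1 library each. Of the 4743 genes with a mean of 10 to 50 CPM, the class of Hk3, 4450 had more than 3 counts in both libraries. Of the macrophage markers, 4 of 5 were past the rule and lower in Gata2Venus-negative cells. So were 5 of the 8 progenitor and endothelium markers at the level minimum, and 14.9% of all genes at that minimum. What part any such cells had in the Hk3 difference was not tested. Hkdc1 had 0 counts in both libraries, which allows up to 3 counts, 0.288 CPM in Gata2Venus-negative and 0.317 CPM in Gata2Venus-positive cells. The summed level of Hk1 and Hk2 was 240 CPM in Gata2Venus-negative and 96.7 CPM in Gata2Venus-positive cells. With Hk3 added, the sums were 240 and 124 CPM (log2 ratio 0.95, interval 0.85 to 1.05).

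Phosphofructokinase was mostly Pfkl in both libraries, and the 2 minor isoforms were lower in the Gata2Venus-negative library. Pfkl (chromosome 10, 77986947 to 78010083), the liver-type subunit, had 4308 counts in Gata2Venus-negative and 4130 in Gata2Venus-positive cells. Its 414 CPM (interval 402 to 426) in Gata2Venus-negative and 437 CPM (interval 423 to 450) in Gata2Venus-positive cells differed little (log2 ratio −0.08, interval −0.14 to −0.02, and −0.00022 when scaled by total counts). Pfkm (chromosome 15, 98092589 to 98132451), the muscle-type subunit, had 92 and 343 counts. At 8.84 CPM (interval 7.12 to 10.8) in Gata2Venus-negative and 36.3 CPM (interval 32.5 to 40.3) in Gata2Venus-positive cells, it was 4.10-fold lower in Gata2Venus-negative cells (log2 ratio −2.04, interval −2.39 to −1.70). Pfkp (chromosome 13, 6579768 to 6648777), the platelet-type subunit, had 250 and 677 counts. It was 2.98-fold lower in Gata2Venus-negative cells, at 24.0 against 71.6 CPM (log2 ratio −1.58, interval −1.79 to −1.36).

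Pfkl accounted for 93.3% of the phosphofructokinase counts per kb in Gata2Venus-negative cells (interval 92.6 to 94.0) and 80.2% in Gata2Venus-positive cells (interval 79.0 to 81.2). Pfkm took 3.98% in Gata2Venus-negative and 13.3% in Gata2Venus-positive cells, and Pfkp 2.70% and 6.54%. Set against Pfkl within each library, Pfkm was 3.89-fold lower (interval 3.07 to 4.97) and Pfkp 2.82-fold lower (interval 2.42 to 3.30) in Gata2Venus-negative cells. The order of the 2 minor subunits depended on length, since the annotated exons of Pfkp cover 13.4 kb and its longest coding transcript 4145 bases. Per kb of the longest coding transcript, Pfkm took 2.56% in Gata2Venus-negative and 8.57% in Gata2Venus-positive cells, and Pfkp 4.84% and 11.8%. The ratio of Pfkp to Pfkm in counts was 2.72 in Gata2Venus-negative and 1.97 in Gata2Venus-positive cells, a 1.38-fold difference with an interval of 1.04 to 1.83. Pfkp overlaps the gene Pitrm1, with which it shares 17.1% of the 50-base windows of its transcript, and the use of strand in counting is not given in the sources used here.

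**Figure D3:**
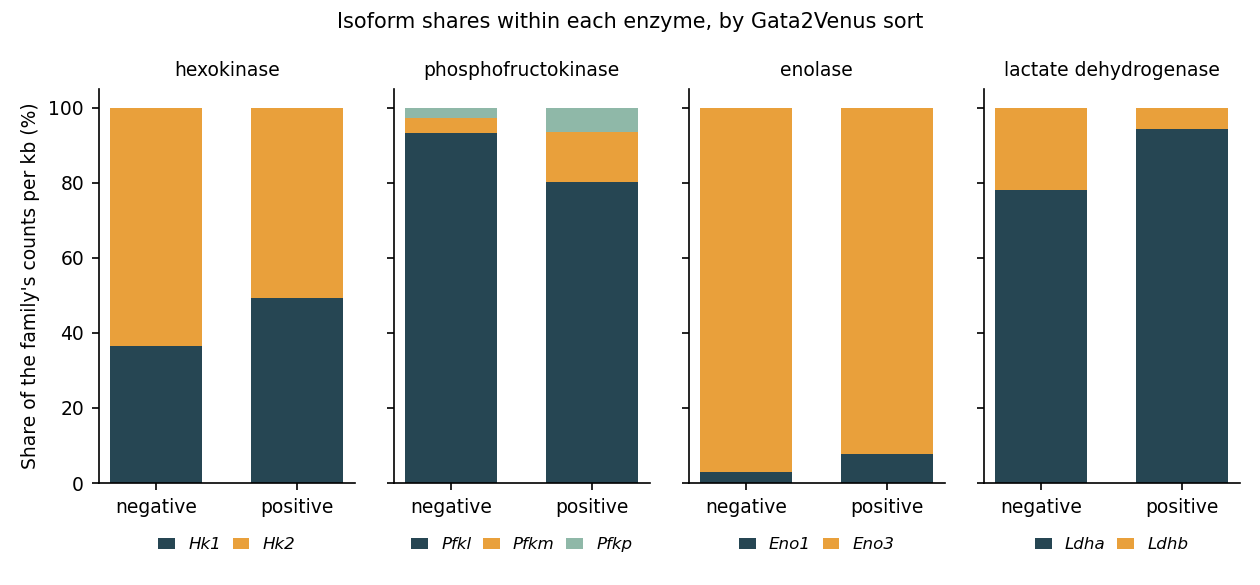
Share of each isoform gene in its family's counts per kb of annotated exon, for the Gata2Venus-negative library (left bar) and the Gata2Venus-positive library (right bar). Hk2 and Ldhb take larger shares in Gata2Venus-negative cells (63.4% and 22.0%) than in Gata2Venus-positive cells (50.7% and 5.63%), and Pfkm and Pfkp take smaller ones; the enolase shares are limited by reads that Eno1 shares with a copy.

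Aldoa was abundant and nearly level. Aldoa (chromosome 7, 126795234 to 126800751), the aldolase of muscle and most embryonic tissue, had 9600 counts in Gata2Venus-negative and 9923 in Gata2Venus-positive cells. These are 922 CPM (interval 904 to 941) and 1049 CPM (interval 1029 to 1070), with a log2 ratio of −0.19 (interval −0.23 to −0.15). By level it ranked 60 in Gata2Venus-negative and 47 in Gata2Venus-positive cells among all genes. Its symbol covers 2 genes in the GENCODE vM21 annotation, of which the larger by coding transcripts is given here. Of the 50-base windows of its longest coding transcript, 13.5% occur in transcripts of other annotated genes. The brain-type gene Aldoc, named after its values were seen, had 96 counts in Gata2Venus-negative and 1 in Gata2Venus-positive cells (log2 ratio 6.45, interval 3.93 to 11.76). At 9.22 CPM it was under the level minimum.

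Eno3 had a higher level in the Gata2Venus-negative library, and Eno1 had few counts in both. Eno3 (chromosome 11, 70657202 to 70662513), the muscle-type enolase, had 626 counts in Gata2Venus-negative and 142 in Gata2Venus-positive cells. At 60.1 CPM (interval 55.5 to 65.0) against 15.0 CPM (interval 12.6 to 17.7), it was 4.005-fold higher in Gata2Venus-negative cells (log2 ratio 2.002, interval 1.74 to 2.27). Eno1 (chromosome 4, 150236721 to 150248879), the enolase of most tissues, had 56 and 37 counts, or 5.38 and 3.91 CPM. The interval of its log2 ratio of 0.46, from −0.17 to 1.10, takes in equal expression.

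Eno1 has a near-identical copy in the genome. Of the 50-base windows of its longest coding transcript, 72.2% occur in transcripts of other annotated genes, and 70.5% in the retrogene Eno1b. For Eno3 the share was 0%. Alignments that are not unique, which were 45.5% of the counts in the Gata2Venus-negative table and 48.2% in the Gata2Venus-positive one, were set apart from the genes by the authors' counting. Eno3 took 97.2% of the enolase counts per kb in Gata2Venus-negative and 92.2% in Gata2Venus-positive cells. Per kb of sequence found in no other gene, an alternative added after seeing the data, the same shares were 80.2% and 58.2%. The first pair of shares takes no account of reads that Eno1 shares with its copy, and the second rests on the 56 and 37 counts of Eno1. The ratio of Eno3 to Eno1 was 2.91-fold higher in Gata2Venus-negative cells (interval 1.79 to 4.68). Eno2, the neuronal enolase, had 0 counts in both libraries.

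Eno3 and Pfkm, both muscle-type isoforms, differed in opposite directions. Of 14 skeletal and cardiac muscle markers, 6 were detected in Gata2Venus-negative cells and 7 in Gata2Venus-positive cells, with sums of 250 and 98.9 CPM. Ckm, Myod1, Myh6, Myh7 and Nppa were at 0 in both libraries. Most of the sums came from Actc1, a cardiac actin gene that is also expressed in smooth muscle, at 237 CPM in Gata2Venus-negative and 60.5 CPM in Gata2Venus-positive cells. The skeletal muscle genes among them did not all differ one way. Myog and Myh3 had 0 counts in Gata2Venus-negative cells, and 49 and 105 counts in Gata2Venus-positive cells. Acta1, with 3 and 54 counts, and Myf5, with 1 and 21, were also lower in Gata2Venus-negative cells. Tnnc2 had 34 counts in Gata2Venus-negative and 0 in Gata2Venus-positive cells, and Mylpf had 95 and 103. Only 3 of the 14 markers (Actc1, Myh3 and Mylpf) met the level minimum, and the values of the others rest on low counts.

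Ldhb was higher relative to Ldha in the Gata2Venus-negative library. Ldha (chromosome 7, 46841475 to 46855627) encodes the muscle-type subunit, which favours the making of lactate, and Ldhb (chromosome 6, 142490249 to 142507957) the heart-type subunit. Because the pair differed in opposite directions, the 250 bases before a RefSeq start of each gene are shown, for Ldha the first of its 2 starts, at chr7:46845554-46845803 on the plus strand, and for Ldhb its single start, at chr6:142507958-142508207 on the minus strand (GRCm38.p6, the mm10 build). They are given 5′ to 3′ along the gene, with ACGTG and GCGTG on either strand, the core letters bound by hypoxia-inducible factors, in capitals.
Ldha: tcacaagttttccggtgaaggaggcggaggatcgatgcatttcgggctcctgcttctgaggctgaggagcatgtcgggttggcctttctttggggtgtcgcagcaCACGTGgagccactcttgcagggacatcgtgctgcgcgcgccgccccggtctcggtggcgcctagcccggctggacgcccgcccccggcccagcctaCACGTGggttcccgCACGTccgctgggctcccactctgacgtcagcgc
Ldhb: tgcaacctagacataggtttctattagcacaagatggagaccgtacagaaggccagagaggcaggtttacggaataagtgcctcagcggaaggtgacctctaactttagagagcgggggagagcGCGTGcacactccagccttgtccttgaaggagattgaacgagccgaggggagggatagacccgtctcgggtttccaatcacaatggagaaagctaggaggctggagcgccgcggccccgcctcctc
The Ldha window printed holds ACGTG 5 times over both strands. It holds CACGTG, which contains ACGTG on both strands, 2 times. The Ldhb window holds GCGTG once and ACGTG 0 times. The window of the other Ldha start, at chr7:46846832-46847081 and not printed, also holds GCGTG once and ACGTG 0 times, the same as the Ldhb window. Over all 32851 windows of this length in the RefSeq table, 16.6% hold ACGTG, 28.2% GCGTG, 6.02% CACGTG and 38.6% at least ACGTG or GCGTG. The 10 members matched 19 windows, since several have more than 1 start. Of these, 6 hold ACGTG, in Aldoa, Hk2, Ldha and Pfkm, and 16 hold ACGTG or GCGTG. Some windows of Aldoa, Eno1 and Pfkm overlap each other, so the same site can count in more than 1 window. Several windows also take in annotated exon, and 1 window of Eno1 is exon over all its 250 bases. A match describes the letters only, and whether any factor binds there or bears on the ratios was not tested.

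Ldha had 8448 counts in the Gata2Venus-negative library and 13476 in the Gata2Venus-positive library. At 811 CPM (interval 794 to 829) against 1425 CPM (interval 1401 to 1449), it was 1.76-fold lower in Gata2Venus-negative cells (log2 ratio −0.81, interval −0.85 to −0.77) and not past the rule. By level it ranked 74 among all genes in Gata2Venus-negative and 28 in Gata2Venus-positive cells. Ldhb had 1127 and 381 counts. Its level was 108 CPM (interval 102 to 115) in Gata2Venus-negative and 40.3 CPM (interval 36.3 to 44.5) in Gata2Venus-positive cells. It was thus 2.69-fold higher in Gata2Venus-negative cells (log2 ratio 1.43, interval 1.26 to 1.60).

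Ldhb took 22.0% of the counts per kb of the pair in Gata2Venus-negative cells (interval 20.9 to 23.0) and 5.63% in Gata2Venus-positive cells (interval 5.10 to 6.19), a difference of 16.3 percentage points (interval 15.1 to 17.5). As a ratio to Ldha it was 4.72-fold higher in Gata2Venus-negative cells (interval 4.18 to 5.33). The summed level of both genes was 920 CPM in Gata2Venus-negative and 1465 CPM in Gata2Venus-positive cells. Divided by the longest coding sequence, the Ldhb share was 12.6% in Gata2Venus-negative and 2.97% in Gata2Venus-positive cells. Copies of both genes exist, and 16.6% of the Ldha windows and 27.0% of the Ldhb windows occur in other annotated genes. Ldhc, the testis gene of the family, and Ldhal6b had 0 counts in both libraries.

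Aligned end to end, identity of the coding sequences was 71.1% for Hk1 and Hk2, 76.7% for Eno1 and Eno3, and 65.4% for Ldha and Ldhb. The phosphofructokinase genes shared 66.1% (Pfkl and Pfkp) to 69.2% (Pfkl and Pfkm).

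Genes linked to these steps were read from 7 lists, in which 45 of 63 genes met the level minimum. Of the 45, 4 were past the rule and higher in the Gata2Venus-negative library, 4 were past it and lower, and 37 were not past it. Over all genes at the level minimum, 15.2% were past it and higher and 14.9% lower, the shares to set beside each list below. The other steps of glycolysis had 8 genes at the level minimum and 0 past the rule in either direction. Their median log2 ratio was −0.15 over the 10 genes with at least 20 counts over both libraries, beside −0.01 over the 12544 genes with as many. Pkm, pyruvate kinase, was at 1240 CPM in Gata2Venus-negative and 1062 CPM in Gata2Venus-positive cells (log2 ratio 0.22, interval 0.19 to 0.26). Of the Pkm windows, 34.4% occur in other annotated genes. Gapdh and Pgk1, named after their values were seen, were at 92.4 and 23.2 CPM in Gata2Venus-negative and 122 and 30.7 CPM in Gata2Venus-positive cells. Of their windows, 82.5% and 68.0% occur in other annotated genes, and such reads are not in their counts where the authors' counting set them apart.

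Control of fructose bisphosphate had 5 genes at the level minimum and 1 past the rule. Pfkfb2, which makes and breaks the phosphofructokinase activator fructose 2,6-bisphosphate, had 1 count in Gata2Venus-negative and 162 counts in Gata2Venus-positive cells (log2 ratio −7.48, interval −12.79 to −4.98). It shares 25.1% of its windows with another annotated gene. Its paralog Pfkfb3 was at 61.2 CPM in Gata2Venus-negative and 64.8 CPM in Gata2Venus-positive cells, and the list's median was 0.005. Fbp1 and Fbp2, the fructose bisphosphatases of gluconeogenesis, had 0 counts in both. Of the glucose and lactate transporter genes 5 met the level minimum and 0 were past the rule, with a median of −0.09. Slc2a1, the main glucose transporter, was at 566 CPM in Gata2Venus-negative and 595 CPM in Gata2Venus-positive cells.

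The list of pyruvate entry to mitochondria had 12 genes at the level minimum, of which 3 were past the rule and higher in Gata2Venus-negative cells and 1 was lower, with a median of 0.40. Pdha1, a subunit of pyruvate dehydrogenase, was 2.22-fold higher, at 198 against 89.2 CPM. The pyruvate carrier subunit gene Mpc1 had 108 counts in Gata2Venus-negative and 29 in Gata2Venus-positive cells. Of the windows of Pdha1 and Mpc1, 16.9% and 29.6% occur in other annotated genes. Pdk2, a kinase that inhibits pyruvate dehydrogenase, had 120 counts in Gata2Venus-negative and 0 in Gata2Venus-positive cells. With 0 set to 3 counts, it was 36.3-fold higher in Gata2Venus-negative cells. The exact interval of its log2 ratio has a lower bound of 4.86. Dlat, another subunit of the complex, was 2.65-fold lower, at 40.5 against 107 CPM.

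In the pentose phosphate pathway 8 genes met the level minimum, with a median of −0.09. Rpia, ribose 5-phosphate isomerase, was past the rule and higher in Gata2Venus-negative cells (196 and 12 counts, log2 ratio 3.89, interval 3.05 to 4.87). H6pd, which starts the pathway in the endoplasmic reticulum, had 1 and 441 counts (log2 ratio −8.92, interval −14.23 to −6.44). Tkt, transketolase, was at 422 CPM in Gata2Venus-negative and 485 CPM in Gata2Venus-positive cells. Among 6 transcription regulators of glycolysis at the level minimum, 0 were past the rule and the median was −0.15. Hif1a, a hypoxia-inducible factor, was at 447 CPM in Gata2Venus-negative and 339 CPM in Gata2Venus-positive cells (log2 ratio 0.40, interval 0.34 to 0.47).

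**Figure D4:**
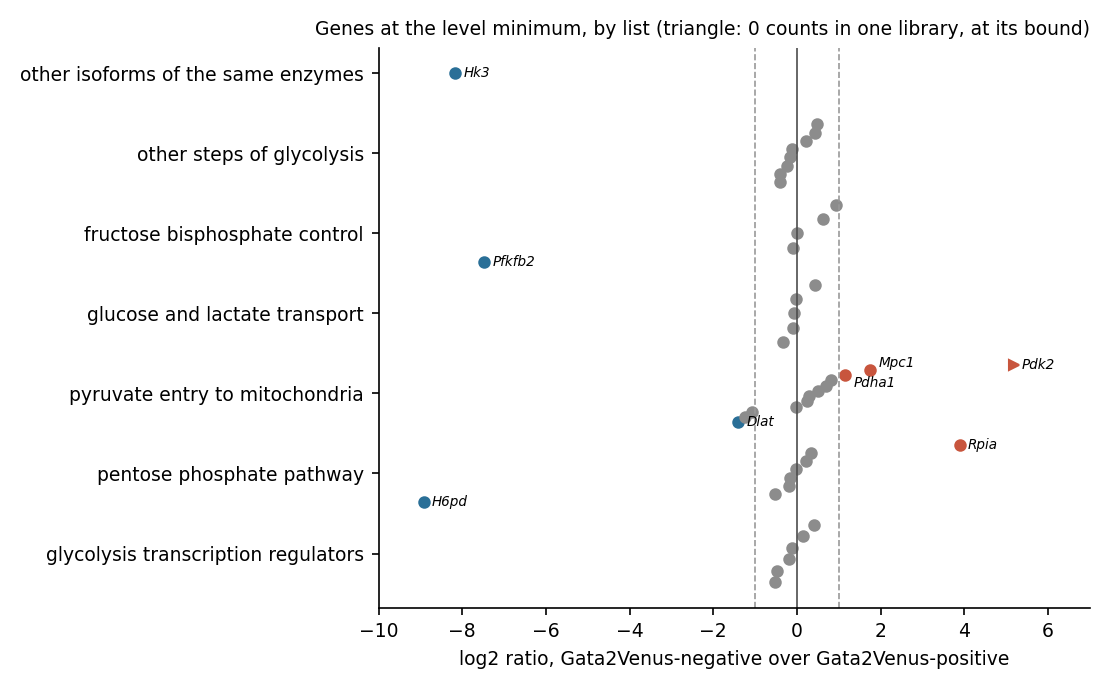
Log2 ratio of Gata2Venus-negative over Gata2Venus-positive for the genes of the 7 linked lists at the level minimum, with dashed lines at 2-fold. Red genes were past the rule and higher, blue ones past it and lower, and grey ones not past it. Hk3, Pfkfb2 and H6pd have 1 count in Gata2Venus-negative cells. The triangle marks Pdk2, with 0 counts in Gata2Venus-positive cells, at its ratio with 0 set to 3 counts.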

How the data were processed

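RNA was extracted with the mirVana kit and copied by the SMARTER protocol before Illumina sequencing, per the labels' protocols. TopHat, Cufflinks and HTSeq are named with build mm10, per the submitters' processing notes. The versions, annotation and strand setting were not given in the sources used here. The tables the authors deposited, 1 for each library, hold raw whole-number counts by gene symbol and end in 5 rows that name no gene. Non-unique alignments made up 45.5% of the Gata2Venus-negative table and 48.2% of the Gata2Venus-positive one, reads without a feature 5.93% and 7.996%, and ambiguous reads 0.474% and 0.412%. None of these entered a library size or a comparison.

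Counts were scaled by edgeR 4.0.16 TMM factors (1.03 for the negative and 0.974 for the positive library; R 4.3.3). With 1 library per group no test was possible. Levels have exact Poisson intervals. Ratios and shares have Clopper-Pearson intervals given the total, carried through gene lengths for shares per kb. Ratios between isoforms have conditional exact intervals, which were chosen after the data were seen. Intervals of share differences join the margins of both shares as the root of their summed squares and are approximate. Positions, exon lengths and shared 50-base windows come from GENCODE vM21, to which 22750 of 24062 symbols matched. Promoter windows come from the RefSeq table of GRCm38.p6, searched for motifs on both strands. Coding sequences were aligned with Biopython 1.88. The self-test ran on simulated data. Alternatives covered scaling (DESeq2 1.42.0 size factors among them), level minimum, fold, thinning, assumed spread, added counts, gene length, family membership and copies.

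The members, lists and tests were chosen with earlier results of these data known. All members are named. Of each linked list, up to 4 genes past the rule and the most abundant one are named, and the text says which other genes were picked after seeing values. No genes of like pattern are named, since 2 libraries give 1 ratio per gene. Protein sequences were not used here. Some genes of the families and marker lists are not reported here.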

Additional observations from a re-analysis of the deposited data

How the results depend on the processing

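No paired analysis was possible because each group has 1 library, and no replicate was left out for the same reason. With library totals as the scale, the median log2 ratio over genes at the level minimum shifted by 0.077, and the other 3 scalings by less. No scaling, thinning or added count changed the call or direction of a member.

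Main counts past the rule, higher and lower in the Gata2Venus-negative library, were 1582 and 1545 for all genes, 3 and 2 for the members, and 4 and 4 for the linked lists. At a minimum of 50 CPM they were 629 and 545 for all genes and 1 and 1 for the linked lists, and 1 member was lower, since Pfkm is under that level. At a minimum of 1 CPM and 10 counts 2297 genes were higher and 2484 lower, and with no minimum 2310 and 2503, with 7 and 7 of the linked genes past the rule under both. Beyond 1.5-fold there were 2440 and 2384 genes, and Hk1 and Ldha joined the members. Beyond 4-fold there were 744 and 751, with 0 and 0 members and 2 and 3 linked genes. With an assumed coefficient of variation of 0.4 there were 641 and 683, with 0 and 0 members and 2 and 3 linked genes.

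Share differences, Gata2Venus-negative minus Gata2Venus-positive in percentage points, kept their direction under each length tried. The main values were −9.32 for Pfkm, −3.85 for Pfkp, 4.96 for Eno3 and 16.3 for Ldhb. Per kb of the longest coding transcript they were −6.01, −6.92, 10.3 and 11.9, per kb of coding sequence −4.69, −7.74, 12.5 and 9.64, in counts −4.68, −7.77, 12.5 and 9.02, and per kb of sequence found in no other gene −5.85, −8.05, 22.0 and 13.3. With Hk3 in the family the Hk1 difference was 5.03 in place of −12.7, and that of Hk2 30.9 in place of 12.7. Low counts limit Eno1 most, with 93 in all, and 72.2% of its 50-base windows occur in other annotated genes.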
